A study of Citrullus lanatus with 4 samples.

Results

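The calmodulin gene Cla003151 and the calcium-dependent protein kinase genes Cla002497 and Cla000330 were followed in the floral organs of a male fertile and a male sterile watermelon line. They are 3 of the 23440 genes in the count table and were chosen by gene ID. RNA-seq was performed on 4 libraries, 1 for each combination of line and organ. The male fertile line was DAH3615 (genotype Msms). The male sterile line was DAH3615-MS (genotype msms), a genic male sterile line that is near-isogenic to it, and plants of both came from one segregating population grown in a greenhouse. Floral buds were collected 1 d before flowering, at 7 to 8 mm in DAH3615 and 3 to 4 mm in DAH3615-MS, so line and bud size cannot be told apart in the floral bud libraries. Flowers were collected on the first day of flowering, from lower nodes than the buds, so organ and node position cannot be told apart. The study also describes the flowers of DAH3615-MS as smaller, with defective stamens and without pollen grains. The number of plants behind a library is not stated in the sources used here, and no dissection of the buds or flowers is described.

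Calcium is an intracellular messenger whose level rises in response to developmental and external cues, and plant cells read it through proteins with EF-hand motifs. Calmodulin is a small EF-hand protein without enzyme activity of its own that changes shape when it binds calcium and then alters the proteins it binds. Calcium-dependent protein kinases (CDPKs) join a kinase domain and a calmodulin-like EF-hand domain in 1 protein, so that calcium activates the kinase directly. Both families are known for their part in pollen tube growth, where a calcium gradient stands at the growing tip. Calmodulins and many CDPKs are also expressed in vegetative and floral tissues outside the pollen.

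Cla003151 lies on the minus strand of chromosome 2 from 34072797 to 34075698 (watermelon genome, version 1) and is described in the study's annotation table as calmodulin 5, after an Arabidopsis protein. Cla002497 lies on the minus strand of chromosome 4 from 11115387 to 11118491 and is described as a calcium-dependent protein kinase, after a protein of the rubber tree. Cla000330 lies on the minus strand of chromosome 0, which holds sequence not placed on a chromosome, from 11138612 to 11139241, and is described as calcium-dependent protein kinase 2, after a maize protein. The gene models of Cla003151 and Cla002497 span 2902 and 3105 bases. How much of each span is exon, intron or UTR was not determined, so levels were not set against transcript length and are compared here only within a gene. The model of Cla000330 spans 630 bases, or at most 210 codons, and a CDPK with both its kinase and its EF-hand domain is longer than that. Plant genomes hold several calmodulin genes with nearly identical coding sequences, and how reads shared between such copies were assigned is not known, so the counts of Cla003151 carry that uncertainty. The study's qRT-PCR assays for a calmodulin and for a calcium-dependent protein kinase 2 were listed under other protein IDs than those of Cla003151 and Cla000330 and were not matched to them.

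None of the 3 genes overlapped a neighbouring gene model. The nearest models to Cla003151 were 4170 and 5368 bases away. Of the 3 genes on either side of it, 0 passed the test between the lines described below (edgeR, adjusted p 0.331 or more). As 3.95% of all genes passed it, this does not set the neighbours apart. Between the organs only Cla003148 passed, higher in flowers (log2 fold change 3.24, adjusted p = 0.000227, same test, 15.2% of all genes called). CBL-interacting protein kinase 18, Cla003149, another calcium-related gene, lay 18431 bases away. Cla002497 stood in a stretch of chromosome 4 with little transcription. The 3 gene models on either side of it had 0 counts in all 4 libraries, and the nearest was 32727 bases away. For Cla000330 the order of genes on chromosome 0 carries no information on true neighbours.

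The counts on genes summed to between 5239032 and 6315796 per library. Counts were scaled with TMM factors and are given as CPM, the usual per-library share scaled by effective library size, with 95% exact Poisson intervals that cover counting error only. For line and organ effects, a model that holds both factors was fitted in edgeR and its quasi-likelihood test was run, over every gene with a count (the 3708 genes without one were left out), and genes were called where the Benjamini-Hochberg adjusted p was under 0.01. With 1 library per condition, the only residual of this model is the line-by-organ difference, and the spread between plants of one condition was not measured. Between the lines, 3.95% of the tested genes were called, and 3.92% were called higher and 0.0355% lower in DAH3615. Between the organs, 15.2% were called, with 7.59% higher and 7.58% lower in flowers. Pairs of libraries were compared with edgeR's exact test at the trended dispersion of that model, and these tests compare 2 libraries, not the conditions.

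Of the 3 genes, 0 passed the test between the lines, while 2 of them, Cla003151 and Cla002497, had an unadjusted p under 0.05 in edgeR's quasi-likelihood test, as did 16.3% of all genes. Both were called by DESeq2 (3.95% of the genes to which it gave an adjusted p), by limma-voom (5.21% of all genes) and by the likelihood ratio test (6.79%). Cla003151 and Cla002497 had higher values in DAH3615 in each organ. Between the organs 1 of the 3 passed, Cla002497, which rose in flowers. Cla000330 passed neither test. In bulk tissue, fewer cells of a type and less RNA per cell cannot be told apart.

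Cla003151 was counted 1392 times in the floral buds and 1262 times in the flowers of DAH3615, and 770 and 314 times in those of DAH3615-MS. The scaled levels were 254 CPM (241 to 268), 214 CPM (202 to 226), 125 CPM (117 to 135) and 57.9 CPM (51.7 to 64.7) in the same order. Both DAH3615 libraries were above both DAH3615-MS libraries, and the intervals of the 4 libraries did not overlap. The fitted log2 fold change of DAH3615 over DAH3615-MS was 1.45 (standard error 0.24, adjusted p = 0.0110, edgeR quasi-likelihood test), a fold of 2.72 with a 95% interval of 1.84 to 4.03 from the same model. The adjusted p lay just above the threshold of 0.01, and 89.6% of the tested genes had a fitted line effect at or below that of Cla003151.

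The distance between the lines was wider in flowers than in floral buds for this calmodulin gene. In floral buds the DAH3615 library was 2.03-fold above the DAH3615-MS library (95% exact counting interval 1.86 to 2.22), which the exact test of the 2 libraries did not call (edgeR, adjusted p = 0.0584, 5.04% of all genes called). In flowers it was 3.69-fold above (3.26 to 4.19), which was called (adjusted p = 7.06e-06, 4.85% called). From floral bud to flower the level was lower by 1.19-fold in DAH3615 (adjusted p = 0.792, 11.1% called) and by 2.17-fold in DAH3615-MS (adjusted p = 0.0132, 14.1% called, same exact test), and neither was past the threshold. Over both lines the fitted log2 fold change of flowers over floral buds was -0.67 (standard error 0.24, adjusted p = 0.0753, edgeR quasi-likelihood test). In the order of levels, DAH3615 floral buds and DAH3615 flowers did not differ beyond the modelled spread at this threshold, nor did DAH3615 flowers and DAH3615-MS floral buds (adjusted p = 0.108, 15.8% called), nor the 2 organs of DAH3615-MS. The ends of the order, DAH3615 floral buds and DAH3615-MS flowers, were 4.39-fold apart (adjusted p = 8.81e-08, edgeR exact test of 2 libraries, 21% called).

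Cla002497 was counted 656 times in the floral buds and 1650 times in the flowers of DAH3615, and 330 and 865 times in those of DAH3615-MS. That was 120 CPM (111 to 129), 279 CPM (266 to 293), 53.7 CPM (48.1 to 59.8) and 159 CPM (149 to 170) in the same order. Both flower libraries were above both floral bud libraries, whereas the lines overlapped, with DAH3615-MS flowers above DAH3615 floral buds. The fitted log2 fold change of flowers over floral buds was 1.39 (standard error 0.19, adjusted p = 0.00198, edgeR quasi-likelihood test), a fold of 2.62 with a 95% interval of 1.93 to 3.57.

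In each line the flower library was above the floral bud library for this CDPK gene, tested at a dispersion taken from all 4 libraries. The rise was 2.33-fold (95% exact counting interval 2.13 to 2.56) in DAH3615 (adjusted p = 0.00536, edgeR exact test of 2 libraries, 11.1% of all genes called). In DAH3615-MS it was 2.97-fold (2.61 to 3.38, adjusted p = 0.000189, same test, 14.1% called). Between the lines the fitted log2 fold change of DAH3615 over DAH3615-MS was 0.98 (standard error 0.19, adjusted p = 0.0221, edgeR quasi-likelihood test), a fold of 1.97 with a 95% interval of 1.45 to 2.67, and did not pass. The DAH3615 library was 2.23-fold above in floral buds (1.95 to 2.56, adjusted p = 0.0227, edgeR exact test) and 1.75-fold above in flowers (1.61 to 1.90, adjusted p = 0.234). In the order of levels, DAH3615 flowers stood first and DAH3615-MS floral buds last, 5.20-fold apart (adjusted p = 2.12e-09, edgeR exact test). The neighbours between them, DAH3615-MS flowers and DAH3615 floral buds, did not differ beyond the modelled spread (1.33-fold, adjusted p = 0.441), and the same held for DAH3615 flowers and DAH3615-MS flowers and, at this threshold, for the floral buds of the 2 lines.

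Cla000330 was counted 285 times in the floral buds and 203 times in the flowers of DAH3615, and 281 and 224 times in those of DAH3615-MS. The levels were 52.1 CPM (46.2 to 58.5), 34.4 CPM (29.8 to 39.4), 45.7 CPM (40.5 to 51.4) and 41.3 CPM (36.1 to 47.1) in the same order. Both lines overlapped, while the floral bud libraries of each line had the higher value. The fitted log2 fold change of DAH3615 over DAH3615-MS was -0.03 (standard error 0.19, adjusted p = 0.958, edgeR quasi-likelihood test). The 95% interval of the fold was 0.713 to 1.34, so a difference of the size fitted for Cla003151 or Cla002497 lay outside it. Between the organs the log2 fold change was -0.37 (standard error 0.19, adjusted p = 0.203). The 4 libraries fell in the order DAH3615 floral buds, DAH3615-MS floral buds, DAH3615-MS flowers and DAH3615 flowers, and no pair of them was called by edgeR's exact test (adjusted p between 0.295 and 1).

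**Figure D1:**
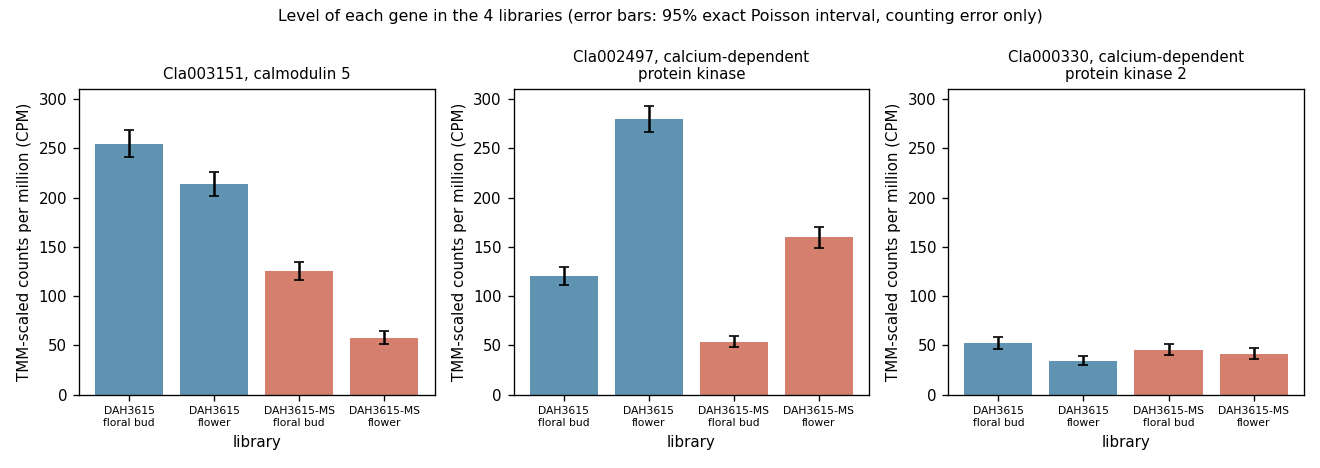
Level of Cla003151, Cla002497 and Cla000330 in each library, in TMM-scaled CPM, with 1 bar per library, DAH3615 in blue, DAH3615-MS in red and 95% exact Poisson intervals for counting error. Cla003151 was at 254 and 214 CPM in the DAH3615 libraries against 125 and 57.9 CPM in DAH3615-MS, Cla002497 was at 279 and 159 CPM in flowers against 120 and 53.7 CPM in floral buds, and Cla000330 stayed between 34.4 and 52.1 CPM.

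The ratio of 2 genes within a library does not depend on how libraries are scaled, so the 3 genes were also set against each other as raw counts. The ratio of calmodulin counts (Cla003151) to counts of the CDPK Cla002497 was 2.12 (95% exact counting interval 1.93 to 2.33) in DAH3615 floral buds and 2.33 (2.05 to 2.66) in DAH3615-MS floral buds. In flowers it was 0.765 (0.710 to 0.824) in DAH3615 and 0.363 (0.318 to 0.414) in DAH3615-MS. A ratio also depends on the lengths of both transcripts, so only its change between libraries is read here. The ratio was similar in the floral buds of the 2 lines, with overlapping intervals, and lower in DAH3615-MS flowers than in DAH3615 flowers.

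Against Cla000330, the gene of the 3 with the smallest differences, the 2 kinase genes moved apart from floral bud to flower. The ratio of Cla002497 to Cla000330 was 2.30 (2.00 to 2.65) in DAH3615 floral buds, 8.13 (7.02 to 9.45) in DAH3615 flowers, 1.17 (0.999 to 1.38) in DAH3615-MS floral buds and 3.86 (3.33 to 4.49) in DAH3615-MS flowers. It was higher in DAH3615 than in DAH3615-MS within each organ and higher in flowers than in floral buds within each line, with no overlap of the intervals in those comparisons. The ratio of Cla003151 to Cla000330 separated the lines, at 4.88 (4.30 to 5.57) and 6.22 (5.36 to 7.25) in DAH3615 floral buds and flowers against 2.74 (2.39 to 3.15) and 1.40 (1.18 to 1.67) in DAH3615-MS. These intervals cover counting error and not differences between plants.

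**Figure D2:**
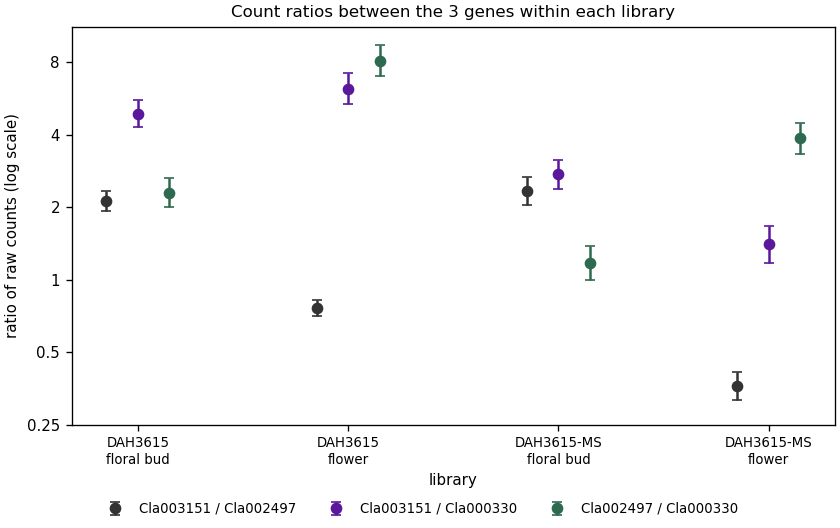
Ratio of raw counts between the genes within each library, on a log axis, with 95% exact counting intervals. The ratio of Cla003151 to Cla002497 is higher in both floral bud libraries (2.12 and 2.33) than in both flower libraries (0.765 and 0.363), and that of Cla002497 to Cla000330 is highest in DAH3615 flowers (8.13).

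Whether the line difference changed between the organs was tested with a likelihood ratio test of the interaction term in edgeR, with the trended dispersion held fixed because no residual is left in that model. It called 0.466% of all genes and 0 of the 3. None of the 3 had an unadjusted p under 0.05. The log2 difference, flowers minus floral buds, was 0.86 for Cla003151 (edgeR, unadjusted p = 0.0814, adjusted p = 0.991), -0.35 for Cla002497 (unadjusted p = 0.479) and -0.45 for Cla000330 (unadjusted p = 0.363). The wider gap between lines in flowers for the calmodulin gene was therefore not past the threshold as a difference between organs.

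The 3 genes were set among 26 genes of calcium signalling, taken by keyword from the part of the study's annotation table that was used here. All 26 had counts. Between the lines, 2 of the 26 were called higher in DAH3615 and 0 lower, with a median log2 fold change of 0.15 against 0.01 over all tested genes. Between the organs, 2 were called higher in flowers, one of them Cla002497, and 1 lower, with a median of -0.17 against 0.0045. With 3.95% and 15.2% of all genes called, this is a description of the list and not a test of it.

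Among the EF-hand sensors, the calls between the lines fell on 2 genes described as calcium binding proteins. Cla002402 was counted 1252 and 1484 times in the buds and flowers of DAH3615 and 616 and 543 times in those of DAH3615-MS. Its log2 fold change of 1.26 (standard error 0.18, adjusted p = 0.00460, edgeR quasi-likelihood test) was smaller than that of Cla003151, with a smaller error. Cla002030 was at 24.1 CPM in the floral buds and 37.6 CPM in the flowers of DAH3615 and without a count in DAH3615-MS (adjusted p = 7.44e-05). With a floor of 3 counts set in place of 0 in DAH3615-MS, DAH3615 was 49.4-fold higher in buds and 68.0-fold higher in flowers. These folds leave out counting error and are no lower bounds. The 95% exact counting intervals of the raw ratios began at 39.6 in buds and 54.8 in flowers. Cla003151 kept 770 and 314 counts in DAH3615-MS. The other EF-hand gene, Cla001741, had between 0 and 4 counts per library.

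The kinases other than Cla002497 gave no call. Cla000205 (described as CDPK 1), Cla000762 (CDPK 22) and Cla003149 (a CBL-interacting kinase, of a family activated by calcineurin B-like calcium sensors) had line effects of -0.20, -0.28 and -0.18 and organ effects of -0.22, 0.22 and -0.05 on the log2 scale. Cla001826, described as CDPK-like, was counted 91 and 58 times in the buds and flowers of DAH3615 and 100 and 41 times in those of DAH3615-MS. Its organ effect of -0.93 (standard error 0.25, adjusted p = 0.0314, edgeR quasi-likelihood test) had the opposite sign to that of Cla002497 and did not pass. Of the 6 kinase genes, 1 was called between the organs, where 15.2% of all genes were, and 0 between the lines. At an unadjusted p under 0.05 between the lines, the count was 1 of 6, Cla002497, against 16.3% of all genes, so neither count set the group apart.

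Annexins bind membrane lipids in the presence of calcium, and 2 of them were called between the organs, in opposite directions. Of all genes, 15.2% were called between the organs. Annexin 2, Cla001842, fell in flowers, with 709 counts in the buds and 325 in the flowers of DAH3615, and 577 and 175 in those of DAH3615-MS (log2 fold change -1.38, standard error 0.18, adjusted p = 0.00177, edgeR quasi-likelihood test). The annexin Cla001954 rose, from 23.9 and 26.9 CPM in the floral buds of DAH3615 and DAH3615-MS to 59.3 and 58.4 CPM in their flowers (1.21, standard error 0.18, adjusted p = 0.00294). Of 8 calmodulin-binding genes, 0 were called in either test. With 3.95% of all genes called between the lines and 15.2% between the organs, this does not set the group apart. Their line effects lay between -0.69 and 4.55. The highest, IQ-domain 12 (Cla002931), had 19 and 8 counts in the buds and flowers of DAH3615 and 1 and 0 in those of DAH3615-MS (adjusted p = 0.0497). The calcium pump and calnexin, an endoplasmic reticulum chaperone that binds calcium, were not called, the latter with an organ effect of -0.85 (adjusted p = 0.0124). The 2 respiratory burst oxidases, enzymes with EF-hands that make reactive oxygen, were not called either, and Cla000765 was counted 50 and 14 times in the buds and flowers of DAH3615 and 18 and 7 times in those of DAH3615-MS.

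**Figure D3:**
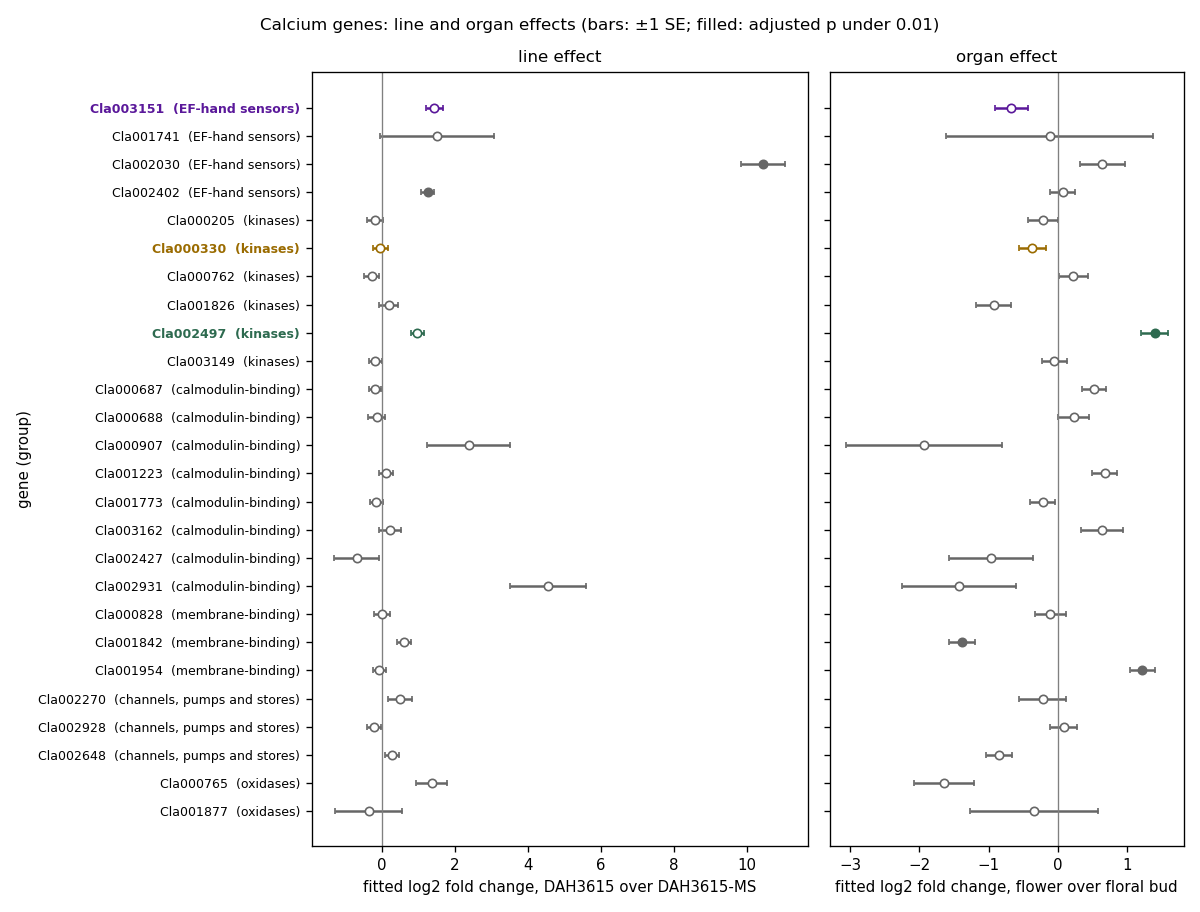
Fitted log2 fold changes of the 26 calcium genes between the lines (left) and between the organs (right), with bars of 1 standard error and filled points for adjusted p under 0.01 in edgeR's quasi-likelihood test. Cla003151 (1.45) and Cla002497 (0.98) lie to the right of 0 in the line panel with open points, and Cla002497 is filled in the organ panel at 1.39. The value of Cla002030, with 0 counts in both DAH3615-MS libraries, depends on the prior count and is no estimate of a fold.

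As markers of pollen, 7 genes were taken, 6 with the word pollen in the description and 1 LIM domain protein added outside that rule. Between the lines 3 of the 7 were called higher in DAH3615, where 3.92% of all genes were, and 0 lower. The called genes were Cla001608, Cla002347 and Cla003043. Cla001608 is the LIM domain gene, and the study had already listed a LIM domain protein among the genes that differ between the lines. Its call is therefore not an independent result. Of the others, Cla002155 was at 3.29 and 1.69 CPM in the buds and flowers of DAH3615 and at 7.32 and 2.21 CPM in those of DAH3615-MS. In edgeR's quasi-likelihood test the adjusted p was 0.390 for Cla002155, 0.0110 for Cla001499 and 0.627 for Cla003156. The summed level of the 7 was 1275 CPM in DAH3615 floral buds and 1567 CPM in DAH3615 flowers, against 25.9 and 6.64 CPM in DAH3615-MS. Most of the sum in DAH3615 came from the LIM domain gene Cla001608 (689 and 1001 CPM) and the pollen allergen gene Cla002347 (369 and 528 CPM). The LIM domain gene Cla001608 had 1 count in each DAH3615-MS library, and Cla002397 was at 0 in all libraries but DAH3615 floral buds, where it had 2 counts. The part of pollen cells in the levels of Cla003151 and Cla002497 was not tested. Both genes kept between 53.7 and 159 CPM in the libraries of the male sterile line. The 3 nuclear genes of photosynthesis, as a mark of green tissue, summed to between 711 and 978 CPM per library. Between the lines 0 of them were called, where 3.95% of all genes were. Between the organs 1 was called, higher in flowers, where 7.59% of all genes were. With 3 genes, neither count sets the group apart.

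**Figure D4:**
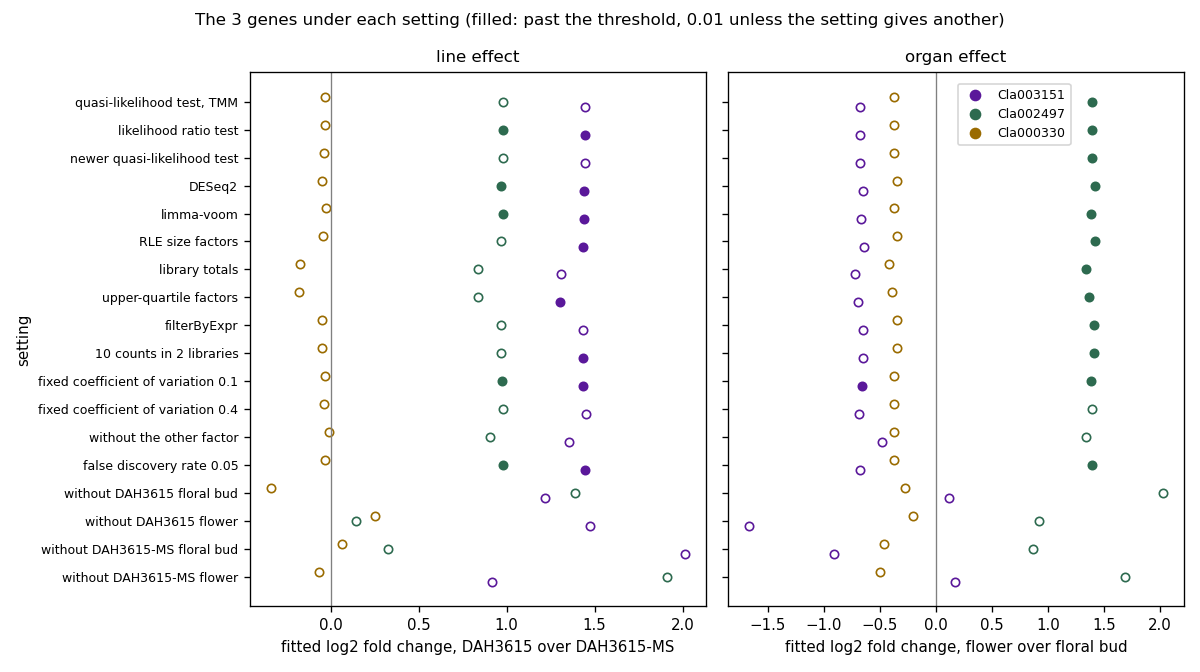
Fitted log2 fold changes of the 3 genes between the lines (left) and organs (right) under each setting of the analysis, filled where past the threshold. With all 4 libraries, Cla003151 lies between 1.30 and 1.45 and Cla002497 between 0.84 and 0.98 in the line panel, with open and filled points, and the points spread in the bottom 4 settings, where 1 library is left out.

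The direction of the line effect of Cla003151 and Cla002497 was the same under all 13 settings that kept 4 libraries, and the call was not. Cla003151 was called under 8 of the 13 and Cla002497 under 5, as the plot of settings shows. With the organ term left out, neither was called (adjusted p = 0.847 and 1, edgeR quasi-likelihood test). Of all genes, 0 were called between the lines in that fit, so it says nothing particular to these genes. The organ effect of Cla002497 was called under 11 of the 13 settings. Among those without a call was the fit without the line term, where 0 of all genes were called between the organs. When any single library was left out, the model could no longer hold both factors and a group held 1 library. Such a fit cannot decide on a call for this gene. Its log2 organ effect then ran from 0.87 to 2.03.

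For each of the 3 genes, the genes with the most similar pattern were found by the root mean square of the differences between log2 CPM values, centred on each gene's own mean over the 4 libraries, among genes with 100 or more counts in all. With 4 points per gene, such likeness is a description. The 3 genes were unlike each other, with differences of 1.1 between Cla003151 and Cla002497, 0.83 between Cla003151 and Cla000330 and 1.02 between Cla002497 and Cla000330. Nearest to Cla003151 were Cla018008 (0.06), Cla014255 (0.08) and Cla018890 (0.08), and among the described genes an alpha-amylase, Cla002291, which breaks down starch and had 1459, 1330, 846 and 384 counts in the library order used above (0.09). The others were a dTDP-glucose 4,6-dehydratase, Cla002447 (0.14), and a phosphoenolpyruvate/phosphate translocator, Cla001160 (0.14).

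Nearest to Cla002497 was an alternative oxidase gene, Cla002470, whose product carries electrons in mitochondria by a route that bypasses the cytochrome pathway, with 425, 1288, 230 and 571 counts (0.10). It was followed by Cla015063 (0.11) and Cla014237 (0.11), and among the described genes by Cla001666 (0.14), of unknown function, and the poly polymerase domain gene Cla000974 (0.15). The values printed for all 3 genes used a prior count of 2 in the log2 CPM. With a prior count of 0.5, Cla014237 (0.1038) came before Cla002470 (0.1046). Among the 3 of all genes nearest to Cla003151, Cla002291 then stood in place of Cla014255. Nearest to Cla000330 were Cla022016 (0.02), Cla016381 (0.02) and Cla002615 (0.02), and among the described genes also Cla002737 (0.03) and a hydrolase of the HAD family, Cla002263 (0.06). A gene that varies little over the libraries has many near matches, as the smaller values for Cla000330 show. None of the 26 calcium genes was among those nearest to any of the 3. Only 3 places per gene were filled, from 14077 candidates or 1316 described ones. So few calcium genes would seldom appear there, and their absence is no result about them.

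**Figure D5:**
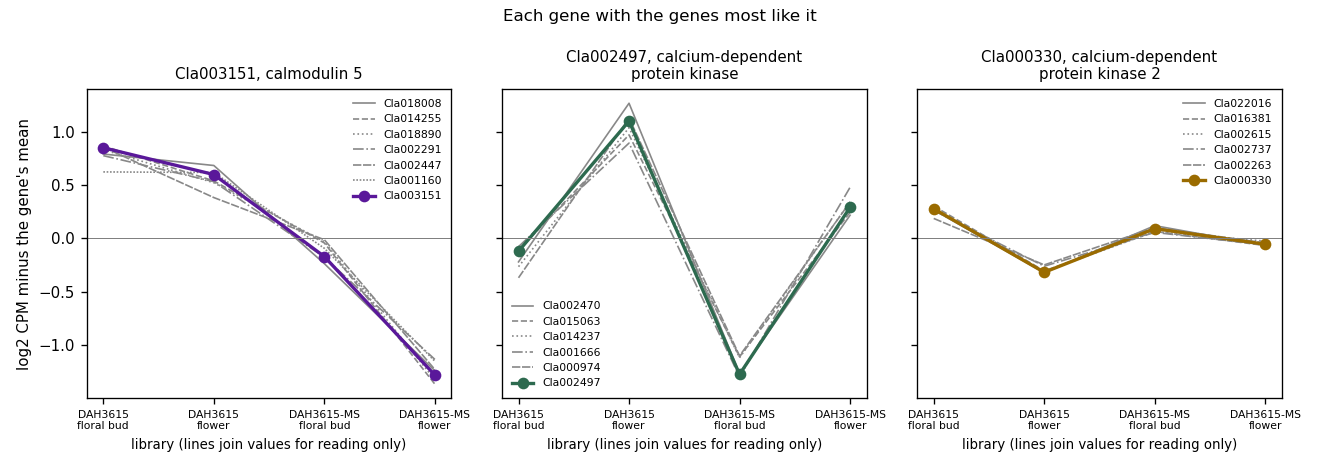
Log2 CPM of each of the 3 genes (coloured, thick) and of the genes most like it (grey), each minus its own mean over the 4 libraries. The grey lines follow the falling order of Cla003151 from DAH3615 floral buds to DAH3615-MS flowers and the peaks of Cla002497 in the flowers of both lines, and the range of Cla000330 is the narrowest.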

How the data were processed

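RNA-seq of 4 libraries was analysed, 1 per condition, grouped by the labels. Adapters were removed with Trimmomatic, reads were mapped to the watermelon genome (version 1) by Bowtie2 within TopHat2, and HTSeq gave the counts per annotated gene that the authors deposited as raw whole numbers. Tool versions and strand use in counting are not given in the sources used here. The study's annotation table was held in part, and its first 1999 genes supplied the descriptions. The adjusted p-values of the authors' own tests in that table were not used. No genome sequence was used.

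The 3 genes, the lists and the tests were chosen with earlier results of these data known. Genes without a count (3708) were left out and 19732 tested. Counts were scaled by TMM in edgeR 4.0.16 (R 4.3.3), with TMM factors between 0.935 and 1.06. Line and organ effects were tested in an additive model with the quasi-likelihood test (1 residual and 6.43 prior degrees of freedom, common biological coefficient of variation 0.174), with Benjamini-Hochberg adjustment at 0.01. Standard errors were the absolute log2 fold change over the square root of F, and 95% intervals used 7.43 degrees of freedom. A count of 3, the floor for genes at 0, was between 0.488 and 0.553 CPM. Counting intervals do not cover differences between plants, and PCR copies are not independent molecules.

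Pairs of libraries were compared with exact tests at the trended dispersion (0.160 to 0.167 as a coefficient of variation for the 3 genes). The pairs that differ in both line and organ and the ratios between genes were added after the counts were seen. The fits were tested on simulated data. Alternatives were other tests (among them DESeq2 1.42.0 and voom of limma 3.58.1), normalizations, count filters, dispersions, models and thresholds, and the exclusion of each library. Figures were drawn with matplotlib 3.10.9. The text names the 3 genes, the other CDPK genes and the called genes of the calcium list, and for each of the 3 genes the 3 most similar among all and among described genes. Other calcium, marker and neighbouring genes named in the text were chosen after their values were seen.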

Additional observations from a re-analysis of the deposited data

Results flagged for a closer look

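The line difference of Cla000330 pointed in opposite directions in the organs. The DAH3615 library was higher in floral buds (log2 fold change 0.19) and lower in flowers (-0.26) than the DAH3615-MS library. The difference between the organs was tested with edgeR's likelihood ratio test of the interaction, with borrowed dispersion, and did not pass (-0.45, unadjusted p = 0.363, adjusted p = 1). With 1 library per condition, no plant-to-plant spread stands behind these values.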

How the results depend on the processing

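The line effect of Cla003151, 1.45 on the log2 scale and not called, was called at 1.45 with the likelihood ratio test (adjusted p = 1.64e-05), 1.44 with DESeq2 (0.000449), 1.44 with limma-voom (0.000548), 1.43 with RLE size factors (0.00881), 1.30 with upper-quartile factors (0.00977), 1.43 with 10 counts required in 2 libraries (0.00967), 1.43 at a fixed coefficient of variation of 0.1 and 1.45 at a false discovery rate of 0.05. That of Cla002497, 0.98, was called at 0.98 with the likelihood ratio test (0.000730), 0.97 with DESeq2 (0.00519), 0.98 with limma-voom (0.00315), 0.97 at 0.1 and 0.98 at the rate of 0.05. The newer quasi-likelihood test called neither (adjusted p = 0.0449 and 0.0485). The organ effect of Cla002497, 1.39, lost its call at a coefficient of variation of 0.4 (1.39) and without the line term (1.34), and that of Cla003151, -0.67, gained one at 0.1 (-0.66). With each library left out in turn and 1 factor in the model, a group held 1 library. That none of the 3 genes was called there says little. The line effects then ran from 0.92 to 2.01 for Cla003151, 0.15 to 1.91 for Cla002497 and -0.34 to 0.25 for Cla000330, and the organ effects from -1.67 to 0.18, 0.87 to 2.03 and -0.50 to -0.20. The sign of the organ effect of Cla003151 turned without the DAH3615 floral bud (0.12) or the DAH3615-MS flower library (0.18), and that of the line effect of Cla000330 without the DAH3615 flower (0.25) or the DAH3615-MS floral bud library (0.07), in fits that mix line with organ.

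Calcium genes higher in DAH3615, 2 of 26, numbered 5 with the likelihood ratio test, limma-voom and the rate of 0.05. They numbered 3 with DESeq2, RLE size factors, upper-quartile factors and 10 counts required in 2 libraries, 1 with the newer test and 8 at 0.1. Those higher in flowers, 2, numbered 1 with the newer test, 3 at the rate of 0.05, 4 at 0.1 and 0 at 0.4. Those lower in flowers, 1, numbered 4 with the likelihood ratio test and the rate of 0.05, 2 with DESeq2, limma-voom, library totals and upper-quartile factors, 6 at 0.1 and 0 at 0.4. Over all genes, 780 were called between lines and 2993 between organs, against 1339 and 4933 with the likelihood ratio test, 2569 and 7540 at 0.1 and 0 and 0 without the other factor, where 1085 and 5397 had an unadjusted p under 0.05. Line calls over all genes numbered 1028 with limma-voom, 1144 at the rate of 0.05, 658 with DESeq2 and 813 with RLE size factors. They numbered 802 with upper-quartile factors, 794 with 10 counts required in 2 libraries and 561 with the newer test. Organ calls numbered 1411 with the newer test, 919 at 0.4 and 5549 at the rate of 0.05. They numbered 2521 with DESeq2, 4132 with limma-voom, 3244 with library totals and 3436 with upper-quartile factors. The counts of calcium genes are to be read beside these totals. With a library left out, line calls ran from 0 to 405 and organ calls were 0, with between 3339 and 4547 genes at an unadjusted p under 0.05. Library totals and upper-quartile factors moved the median line effect of all genes from 0.01 to -0.13. Of 18 comparisons of 2 libraries for the 3 genes, 5 were called, against 6 with library totals, 10 at 0.1, 0 at 0.4 and 14 with Fisher's exact test on raw counts. As log2 differences, those gained for Cla003151 were the lines in floral buds (1.02 at 0.1, 0.89 by Fisher's test), the organs in DAH3615 (-0.31 by Fisher's test), the organs in DAH3615-MS (-1.11 at 0.1, -1.15 with library totals, -1.15 by Fisher's test) and DAH3615 flowers over DAH3615-MS floral buds (0.77 at 0.1, 0.58 by Fisher's test). For Cla002497 they were the lines in floral buds (1.16 at 0.1, 1.03 by Fisher's test) and flowers (0.81 at 0.1, 0.66 by Fisher's test) and DAH3615-MS flowers over DAH3615 floral buds (0.50 by Fisher's test). For Cla000330 Fisher's test added the organs in DAH3615 (-0.66) and DAH3615 flowers over DAH3615-MS floral buds (-0.60). Those lost at 0.4 were the lines in flowers (1.88) and the pair at the ends of the order (-2.14) for Cla003151, and the organs in DAH3615 (1.22) and DAH3615-MS (1.57) and the ends of the order (2.38) for Cla002497. The pairs that differ in both line and organ were chosen after seeing the data. The cause of these changes was not tested. No paired analysis of replicates was possible because each condition had 1 library, and the lines were compared within organs through the organ term of the model. The 3 genes had between 203 and 1650 counts per library.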
